A study of Mus musculus with 10 samples.

Results

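The 8 genes described here are Ppcdc, Add3, Ctxn1, Ipmk, Zdhhc3, Serf1, Aqp1 and Mri1, of 21934 gene symbols in the deposited tables. They were picked by name because their ribosome footprints were higher in libraries labelled as Wdr4-targeted, either under both guide RNAs or in the knockout. Ribosome profiling sequences the stretches of mRNA that ribosomes shield from nuclease (footprints), and input RNA from the same condition gives the amount of each mRNA. Both are in TPM, a transcript level scaled for gene length and for the library total. The choice needed a higher value of any size, which 53.9% of the 6927 genes tested in both tables had.

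The first set of mouse cells was labelled as immortalized bone marrow-derived macrophages (iBMDM). Its lines carried the guide RNA sgWdr4-1 (guide 1) or sgWdr4-2 (guide 2) against Wdr4, and the iBMDM line labelled WT was their control. The lines are labelled monoclonal, and the guides were delivered by lentivirus with puromycin selection. The other set was labelled as tumour-associated macrophages (TAM). By the labels, these were sorted for F4/80 from Hepa1-6 hepatoma tumours grown in the liver. The mice were Wdr4 cKO (cKO, a myeloid deletion) or floxed Wdr4 f/f (ff). The sources used here do not give the strain, the age, the Cre driver or any pooling of animals. Each of the 5 conditions had 1 input and 1 footprint library, 10 in all, so no value below has a replicate and the spread between cultures or animals is unknown. The study asked, by its title, about Wdr4 and translation across the transcriptome.

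Wdr4 binds Mettl1, a methyltransferase, and the pair places 7-methylguanosine on a set of tRNAs, which helps to keep those tRNAs stable and their codons read. The 8 genes belong to different pathways. Ppcdc encodes a decarboxylase of coenzyme A synthesis, Mri1 an isomerase of methionine salvage, and Ipmk a kinase that makes higher inositol phosphates. Zdhhc3 encodes a Golgi enzyme that attaches palmitate to proteins, Aqp1 a water channel, Add3 the gamma subunit of adducin, which caps actin filaments and ties them to spectrin under the membrane, Ctxn1 a small membrane protein described in brain cortex, and Serf1 a small charged protein whose worm relative promotes protein aggregation.

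Several facts of the libraries touch every value below. Of 16 macrophage markers, 13 stayed below 1 TPM in all 5 inputs. Adgre1, which encodes F4/80, and Aif1 had a listed value of 0 throughout. Summed macrophage marker input was 17.7 and 20.3 TPM under guides 1 and 2 against 20.4 TPM in WT, and 19.7 TPM in cKO against 23.5 TPM in ff. Cd14 made up most of it, at 13.8 and 17.0 TPM under the guides against 18.6 TPM in WT, and 14.8 TPM in cKO against 19.8 TPM in ff. Of 10 fibroblast and stellate genes 6 reached 5 TPM in every input, and 4 stayed below 1 TPM in all of them. The list summed to 4226 and 3649 TPM under the guides against 3578 TPM in WT, and 5246 TPM in cKO against 3591 TPM in ff. Most of that was Acta2, at 2834 and 2462 TPM under the guides against 2397 TPM in WT, and 3785 TPM in cKO against 2483 TPM in ff. Summed hepatocyte marker input was 139.4 and 108.2 TPM under the guides against 113.6 TPM in WT, and 166 TPM in cKO against 98.8 TPM in ff. The other marker lists had 6 of 8 hepatocyte, 4 of 5 T cell, 4 of 4 neutrophil, 3 of 3 endothelial and 3 of 4 erythroid genes below 1 TPM in all inputs. The part of any of these in the results was not tested. With most macrophage markers below 1 TPM, the marker values went against the macrophage labels of both sets. The names iBMDM and TAM below are those of the labels only. Wdr4 input was 31.3 and 44.5 TPM under guides 1 and 2 against 44.6 TPM in WT, and 20.9 TPM in cKO against 39.8 TPM in ff. Wdr4 footprints were higher in each targeted library, at 24.3 and 26.9 TPM under the guides against 13.3 TPM in WT, and at 17.7 TPM in cKO against 8.51 TPM in ff. Wdr4 thus went against the labels in its footprints and, under guide 2, was level in input, so a direction below holds for libraries as labelled, and "under guide 1", "in cKO" and the like stand for the library labelled so. The guide 1 footprint library stood apart, with 0.781% of its TPM in mitochondrially encoded genes against 9.94% to 14.6% in the other 4 footprint libraries.

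In cKO all 8 genes had at least 2-fold more footprints than in ff (1 on the scale of log2(TPM + 1)), and under both guides 4 of the 8 did against WT. Over all genes tested, 2.73% of 7101 passed that size in cKO and 0.743% of 7536 under both guides. Genes counted as tested had a mean of at least 5 TPM in input and in footprints, and all 8 genes passed in both tables. The genes were chosen on these footprints, so the counts and the values that follow are a description with no test. The 4 genes past the size under both guides were Ppcdc, Add3, Aqp1 and Mri1. The others parted by guide: 4 of 8 passed under guide 1 (16.1% of all genes) and 7 of 8 under guide 2 (3.03%). In these bulk samples, more cells of a type and more RNA or footprints per cell cannot be told apart.

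**Figure D1:**
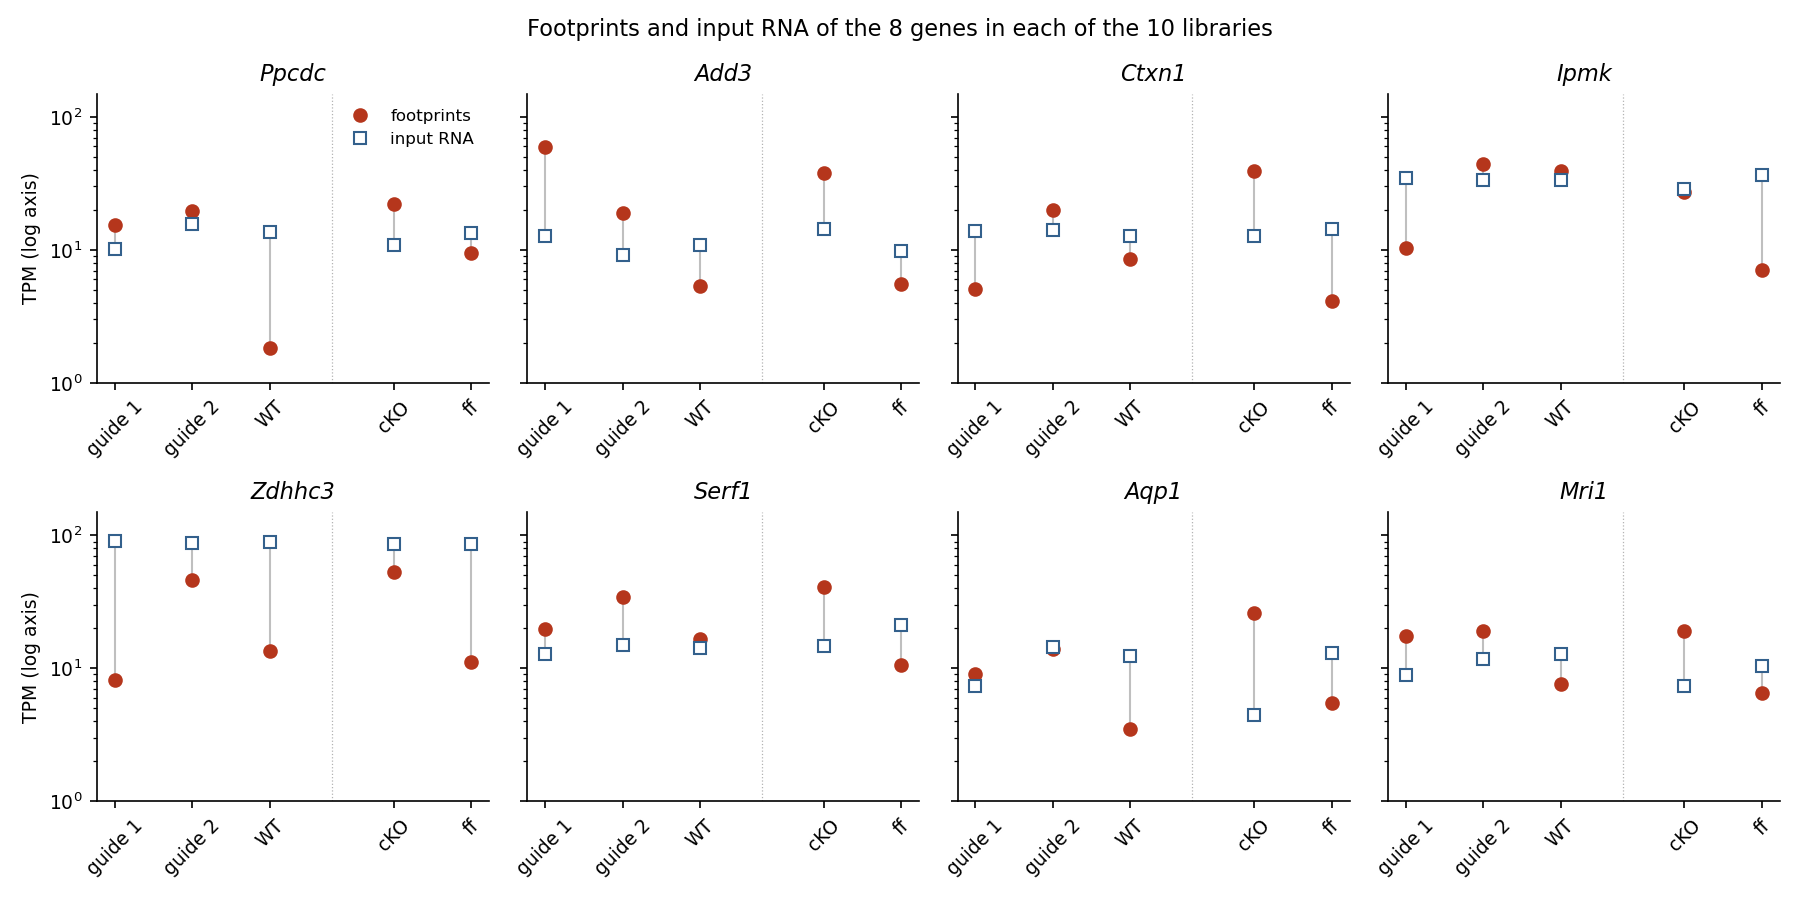
TPM (log axis) of footprints (filled circles) and input RNA (open squares) for each gene in the 10 libraries. The dotted line parts the iBMDM and TAM tables, which were normalised separately, and grey bars join the 2 values of a condition. Footprints in cKO lie between 19.1 and 53.3 TPM and those in ff between 4.15 and 11.1 TPM. The genes were chosen for higher footprints, so this gap is a description with no test.

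Among the enzymes, Ppcdc had the lowest control value of the set. Its footprints were at 15.3 TPM under guide 1 and 19.6 TPM under guide 2, against 1.84 TPM in WT. In cKO they were at 22.1 TPM, against 9.43 TPM in ff. Each targeted library thus held more Ppcdc footprints than the control of its own table, and the WT library alone was under 5 TPM. The log2 changes were 2.52 under guide 1, 2.86 under guide 2 and 1.15 in cKO. Both guide changes rest on that 1 WT value, and the cKO change was the smallest of the 8 genes there.

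Mri1 showed the same arrangement, at smaller size under the guides. Its footprints were at 17.6 and 19.0 TPM under guides 1 and 2 against 7.69 TPM in WT, and at 19.1 TPM in cKO against 6.53 TPM in ff. The log2 changes were 1.10, 1.20 and 1.42. Each targeted library lay above the control of its own table.

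Ipmk differed from the rest of the set. Its footprints were at 10.4 TPM under guide 1 and 44.0 TPM under guide 2, against 39.5 TPM in WT. In cKO they were at 27.3 TPM, against 7.02 TPM in ff. In the iBMDM table guide 2 and WT were high and guide 1 was low, so the order there did not follow targeting. In the TAM table cKO lay above ff. The log2 changes were -1.83, 0.15 and 1.82.

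Zdhhc3 had the highest input RNA of the 8 genes and few footprints for it. Its footprints were at 8.16 TPM under guide 1 and 46.1 TPM under guide 2, against 13.5 TPM in WT. In cKO they were at 53.3 TPM, against 11.1 TPM in ff. Guide 2 and cKO lay above the control of their own table, and guide 1 lay below WT. The log2 changes were -0.66, 1.70 and 2.16.

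The small proteins Ctxn1 and Serf1 followed guide 2 and cKO as well. Ctxn1 footprints were at 5.05 TPM under guide 1 and 19.9 TPM under guide 2 against 8.50 TPM in WT, and at 39.5 TPM in cKO against 4.15 TPM in ff. Serf1 footprints were at 19.7 and 34.3 TPM against 16.7 TPM in WT, and at 41.1 TPM in cKO against 10.7 TPM in ff. The Ctxn1 change in cKO, 2.97, was the largest of the 8 genes and the 6th highest of 7101. Serf1 under guide 2 lay just inside the size rule, at 1.00, and was at 0.23 under guide 1 and 1.85 in cKO. For Ctxn1 the guide changes were -0.65 and 1.14.

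Of the water channel and the membrane skeleton, Aqp1 footprints were at 9.08 and 14.1 TPM under guides 1 and 2 against 3.52 TPM in WT, and at 26.0 TPM in cKO against 5.50 TPM in ff. Add3 footprints were at 59.0 and 19.1 TPM under the guides against 5.32 TPM in WT, and at 38.1 TPM in cKO against 5.55 TPM in ff. For both genes each targeted library lay above the control of its own table. The log2 changes were 1.16, 1.74 and 2.05 for Aqp1 and 3.25, 1.67 and 2.58 for Add3, whose value under guide 1 ranked 5th of 7536 genes.

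**Figure D2:**
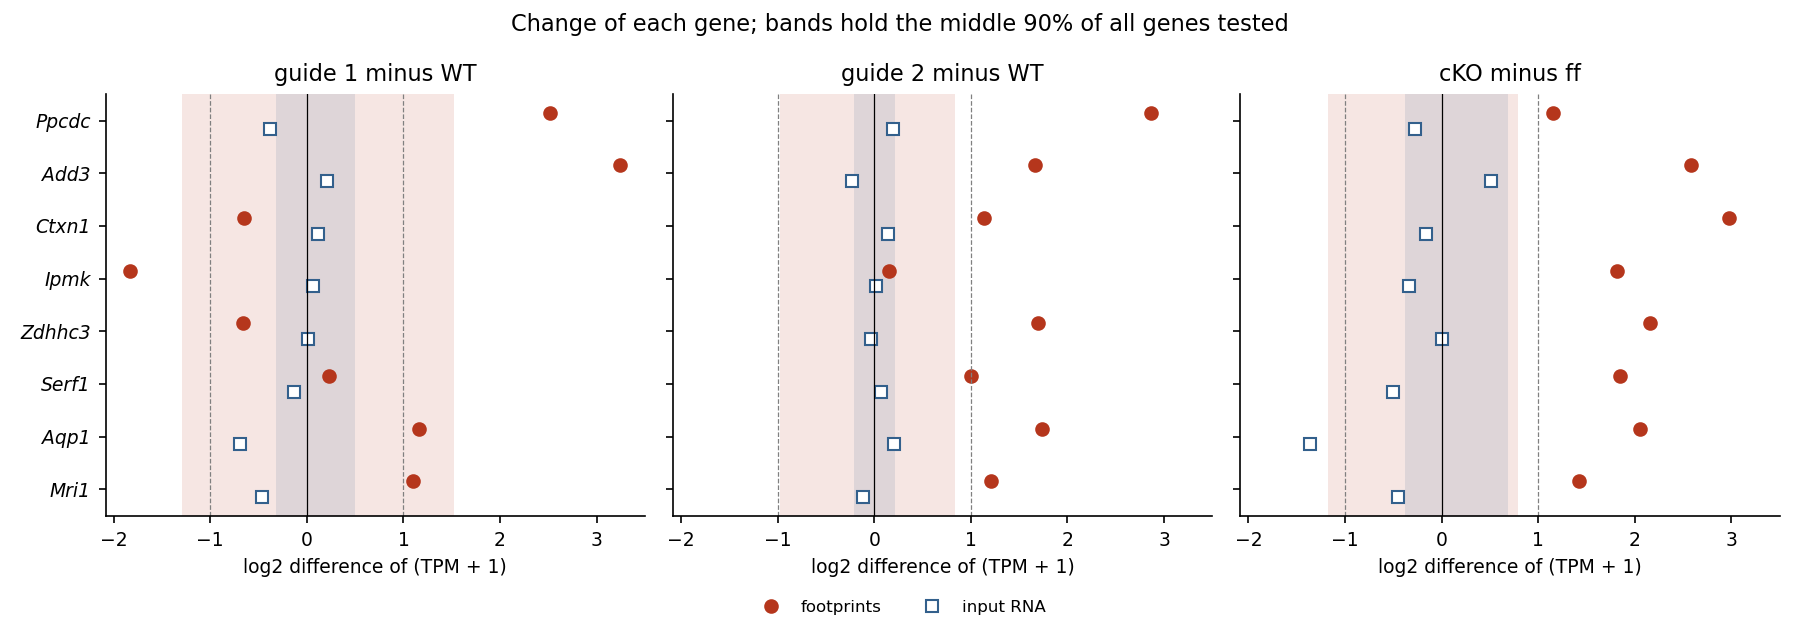
Difference of log2(TPM + 1) for footprints (filled circles) and input RNA (open squares) of each gene, per comparison. Shaded bands hold the middle 90% of all genes tested (footprints the wide band, input the narrow one) and dashed lines mark 2-fold. Footprints of all 8 genes, which were chosen on them, lie right of the footprint band in cKO, where its upper end is 0.79. Under guide 1 those of Ppcdc and Add3 do (upper end 1.52), and Ipmk at -1.83 lies left of the band (lower end -1.29). Under guide 2 those of all but Ipmk (0.15) lie right of it (upper end 0.84).

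The share of all footprints taken by the 8 genes together was 0.0144% under guide 1 and 0.0216% under guide 2, against 0.00966% in WT. It was 0.0266% in cKO, against 0.0060% in ff. Their share of input RNA lay between 0.0180% and 0.0205% in all 5 libraries. The summed footprints differed by library more than the summed input did. Since the genes were chosen on footprints and not on input, this contrast is a description and no result about translation.

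Only 8 of the 6927 genes tested in both tables (0.115%) passed the size rule for higher footprints under both guides and in cKO, and Ppcdc, Add3, Aqp1 and Mri1 were among them. Among the others, chosen after their values were seen, were Mis12, of the kinetochore, Nsdhl, of sterol synthesis, and Gm14305, which was listed at 0 in the WT footprints. In the pairing of guide 2 with cKO, 7 of the 8 genes and 0.794% of all genes passed. The guides share the WT library, so their changes are not independent of each other. The comparison of cKO with ff shares no library with them. Input of WT and ff was close for Acta2 (2397 and 2483 TPM), Cd14 (18.6 and 19.8 TPM) and Zdhhc3 (89.4 and 86.6 TPM). It was less close for Serf1 (14.2 and 21.3 TPM). Whether the iBMDM and TAM libraries came from different cell types was not tested.

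Input RNA is the measure that the choice of genes did not use. By limma on log2(TPM + 1), fitted over all 7536 genes with the 2 guide lines against the 1 WT line (two-sided, 1 residual degree of freedom, the lone WT line assumed to vary like the guides), none of the 8 genes passed, each with an adjusted p = 0.9998. The estimates ran between -0.29 (SE 0.26) for Mri1 and 0.13 (SE 0.23) for Ctxn1. This fit treated the 2 guide lines as replicates, although they carry different guides and are labelled monoclonal. Its residual was thus the difference between these lines, which were unlike in Wdr4 input (31.3 TPM for guide 1, 44.5 TPM for guide 2). The standard errors and p-values therefore do not measure the spread between replicate cultures of 1 line. Over all genes limma called 0 (0%), with 55 (0.73%) at an unadjusted p under 0.05, none of them among the 8. At these standard errors a 2-fold input change of some of these genes could go uncalled, and a p that misses the threshold does not show equal RNA.

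Zdhhc3 input was the steadiest, at 90.4 and 87.1 TPM under guides 1 and 2 against 89.4 TPM in WT, and at 86.7 TPM in cKO against 86.6 TPM in ff. Ctxn1 input lay between 12.6 and 14.3 TPM and Ipmk input between 28.5 and 36.3 TPM in all 5 libraries. Aqp1 input was at 7.32 and 14.5 TPM under the guides against 12.4 TPM in WT, and at 4.44 TPM in cKO against 13.03 TPM in ff. Its input was thus low in guide 1 and cKO, while its footprints were above the controls in both. The cKO change of -1.37 was the only input change of the 8 genes past 2-fold in any comparison. Such input changes were rare among all genes under guide 1 (0.318% higher, 0.0796% lower) and guide 2 (0.0265% higher, 0.0398% lower), and 1.42% were higher in cKO. Lower in cKO by that size were 12 of 7101 genes (0.169%), and 3 genes (0.0422%) also had footprints at least 2-fold higher, Aqp1 among them. Aqp1 was chosen for higher footprints, so its place among the 3 is a description. Its cKO input of 4.44 TPM was also a low value, under 5 TPM.

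Mri1 input was lower in every targeted library too, at 8.998 and 11.7 TPM under the guides against 12.8 TPM in WT, and at 7.38 TPM in cKO against 10.4 TPM in ff. Add3 input went the other way in cKO, at 14.4 TPM against 9.77 TPM in ff, and was 12.7 and 9.11 TPM under the guides against 10.8 TPM in WT. Ppcdc input was 10.2 and 15.7 TPM under the guides against 13.6 TPM in WT, and 10.9 TPM in cKO against 13.5 TPM in ff. Serf1 input was 12.9 and 14.99 TPM against 14.2 TPM in WT, and 14.7 TPM in cKO against 21.3 TPM in ff. In cKO 6 of the 8 genes had less input than in ff at any size, as did 41.2% of all genes tested.

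**Figure D3:**
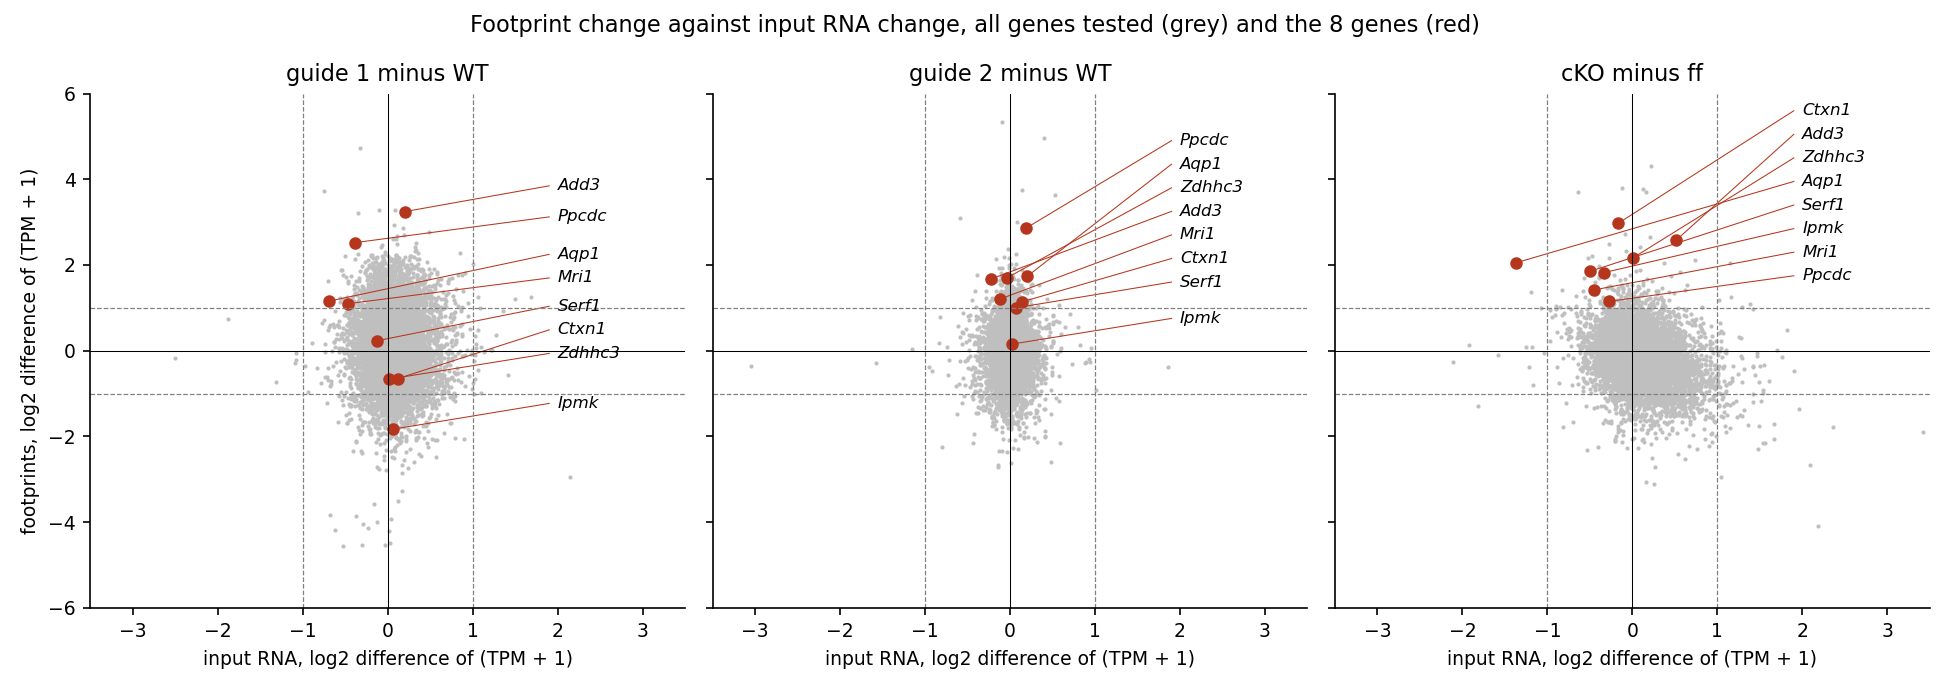
Footprint change (vertical) against input RNA change (horizontal), both as differences of log2(TPM + 1), for all genes tested (grey) and the 8 genes (red, named); 3 grey points lie outside the axes and dashed lines mark 2-fold. In cKO all 8 genes lie above the 2-fold line for footprints, Aqp1 alone of them beyond 2-fold lower input (-1.37), and under guide 1 Ipmk, Ctxn1 and Zdhhc3 sit below 0.

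The sequences upstream of the RefSeq gene starts are shown for Aqp1, whose input was lower in cKO, and for Zdhhc3, whose input was flat. A link between these sequences and input or footprints was not tested. Each is 250 bases up to the start, 5′ to 3′ on the gene's own strand (GRCm38.p6; Aqp1 chr6:55336049-55336298, plus strand; Zdhhc3 chr9:123113195-123113444, minus strand). Capitals mark motifs, searched on both strands. The GC box was searched as GGGCGG. The CCAAT box was searched as its name spells. The TATA box was searched as TATAAA. The E-box was searched as CACGTG, and no matches overlap in these windows.
Aqp1: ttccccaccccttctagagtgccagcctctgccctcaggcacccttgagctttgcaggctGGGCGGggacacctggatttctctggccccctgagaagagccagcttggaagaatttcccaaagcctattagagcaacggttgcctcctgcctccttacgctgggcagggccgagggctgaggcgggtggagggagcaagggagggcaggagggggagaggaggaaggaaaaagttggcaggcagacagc
Zdhhc3: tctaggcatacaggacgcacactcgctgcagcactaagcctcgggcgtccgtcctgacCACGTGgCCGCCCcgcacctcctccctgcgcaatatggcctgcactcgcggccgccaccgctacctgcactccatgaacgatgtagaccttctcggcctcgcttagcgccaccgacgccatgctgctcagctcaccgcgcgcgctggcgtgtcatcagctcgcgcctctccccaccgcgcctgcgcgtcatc
Both windows hold 1 GC box, and that of Zdhhc3 also 1 E-box. All 8 genes matched the RefSeq table, with 10 windows since Add3 has 3 starts. A GC box was in 8 of the 10 windows, covering 7 of the 8 genes, against 61.5% of 7086 windows of the tested genes and 32.7% of all 32851. A CCAAT box was in 2 windows (36% of the windows of tested genes), an E-box in 2 (8.99%) and a TATA box in 0 (5.77%). A match is a description of letters and not of a bound site.

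Translation efficiency, here footprint TPM over input TPM, repeats the footprints in its numerator and is given as a description. In cKO the ratio was above that in ff for all 8 genes. It was 5.85 against 0.422 for Aqp1, 3.12 against 0.291 for Ctxn1, 2.79 against 0.503 for Serf1 and 2.65 against 0.568 for Add3. For Mri1 it was 2.59 against 0.626, for Ppcdc 2.02 against 0.700, for Ipmk 0.958 against 0.193 and for Zdhhc3 0.614 against 0.129. On the log2(TPM + 1) scale all 8 passed 2-fold in cKO (4.03% of all genes), between 1.43 for Ppcdc and 3.42 for Aqp1. Aqp1 thus had the largest efficiency change of the set in cKO, 6th of 7101 genes, with its footprints 20th.

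Under both guides 4 of 8 passed 2-fold for translation efficiency (0.902% of all genes), the same 4 as for footprints. The Ppcdc ratio was 1.49 and 1.25 under guides 1 and 2 against 0.135 in WT, and that of Aqp1 was 1.24 and 0.974 against 0.283. The Add3 ratio was 4.66 and 2.10 against 0.491, and that of Mri1 1.95 and 1.62 against 0.600. Zdhhc3 kept a ratio under 1 in all 5 conditions, at 0.0902 and 0.529 under the guides against 0.151 in WT. Ipmk was at 0.298 and 1.31 against 1.19 in WT, Ctxn1 at 0.363 and 1.41 against 0.668, and Serf1 at 1.52 and 2.29 against 1.17.

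The pathway and family genes around the 8 were not past the same size as a group. Of 81 listed, 42 were tested for iBMDM and 41 for TAM. Under both guides 0 of 42 had footprints at least 2-fold higher (0.743% of all genes) and 2 lower (1.43%). In cKO 1 of 41 was higher (2.73%) and 2 lower (8.15%). Their median footprint change was -0.21 under guide 1, 0.10 under guide 2 and -0.01 in cKO, where all genes tested had medians of 0.09, -0.03 and -0.20.

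In coenzyme A synthesis, the 5 tested genes had medians of 0.52 and 0.16 under guides 1 and 2, and 4 had -0.10 in cKO. Ppcs, the synthetase whose product Ppcdc decarboxylates, had footprints of 14.6 and 7.61 TPM under the guides against 6.69 TPM in WT, and 4.92 TPM in cKO against 4.46 TPM in ff. It was past 2-fold under guide 1 alone (1.02), and it was not tested in the TAM table for its low level. Coasy, the last enzyme of the route, did not pass the level filter, with footprints of 6.58 and 3.04 TPM against 4.12 TPM in WT, and 3.62 TPM in cKO against 4.92 TPM in ff. Ppcdc, chosen for higher footprints as its neighbours in the route were not, lay above both of them in each comparison.

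The methionine salvage and S-adenosylmethionine list, 9 genes all tested, had medians of 0.31, 0.28 and 0.31. Amd1, which makes the aminopropyl donor for polyamines, had footprints of 14.5 and 48.2 TPM under guides 1 and 2 against 22.3 TPM in WT, and 43.4 TPM in cKO against 19.0 TPM in ff (-0.59, 1.08 and 1.15). Within each table its libraries had the order seen for Zdhhc3 and Ctxn1, with guide 2 above WT, WT above guide 1, and cKO above ff. Mtap, which feeds the salvage route with methylthioribose phosphate, was at 0.34, 0.60 and 0.54. Apip, the dehydratase that acts on the Mri1 product and is named here after its values were seen, was at 0.67, -0.30 and -0.08.

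Of the membrane skeleton list 9 genes were tested for iBMDM and 8 for TAM, with medians of 0.53, -0.24 and -0.60. Add1, the alpha subunit that pairs with Add3, had footprints of 54.4 and 28.4 TPM under the guides against 28.3 TPM in WT, and 19.2 TPM in cKO against 42.0 TPM in ff. Its changes were 0.92, 0.00 and -1.09, so in cKO the 2 adducin subunits lay on opposite sides of 0. Add1 input was at the same time higher in cKO, at 184 TPM against 128 TPM in ff.

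Of the inositol polyphosphate list 5 genes were tested, with medians of -0.55, 0.07 and -0.25. Ppip5k1, which makes inositol pyrophosphates downstream of Ipmk, was lower in all 3 comparisons, with footprints of 2.57 and 2.95 TPM under the guides against 10.01 TPM in WT, and 3.75 TPM in cKO against 21.5 TPM in ff (-1.63, -1.48 and -2.24). Ippk, the kinase that completes inositol hexakisphosphate, was at -0.55, 0.07 and -0.25.

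Of the DHHC palmitoyltransferases 13 were tested for iBMDM and 14 for TAM, with medians of -0.80, -0.23 and 0.12. Under guide 1, 5 of 13 were at least 2-fold lower (10.3% of all genes), and Zdhhc3 at -0.66 lay within the family there. Zdhhc7, the nearest paralog of Zdhhc3, was at -0.83, 0.20 and 0.48. Zdhhc8 was lower under both guides, with footprints of 26.7 and 24.7 TPM against 64.9 TPM in WT (-1.25 and -1.36), and at -0.76 in cKO. Under guide 2, where Zdhhc3 was at 1.70, 1 of 13 was at least 2-fold higher (3.03% of all genes) and 1 lower (4.63%). The higher one was Zdhhc18, named here after its values were seen, with footprints of 11.9 TPM under guide 2 against 5.04 TPM in WT (1.09). In cKO no other tested member of the family passed 2-fold in either direction, while Zdhhc3 was at 2.16.

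Serf2, the paralog of Serf1, was a high-footprint gene and lay near its control, at 1120 and 1970 TPM under the guides against 1672 TPM in WT, and at 1937 TPM in cKO against 1949 TPM in ff. Its changes were -0.58, 0.24 and -0.01. None of the 2 other cortexins or 11 other aquaporins passed the level filter, and 2 and 10 of them were under 1 TPM in every input. Aqp1 and Ctxn1 were thus the only tested genes of those families.

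**Figure D4:**
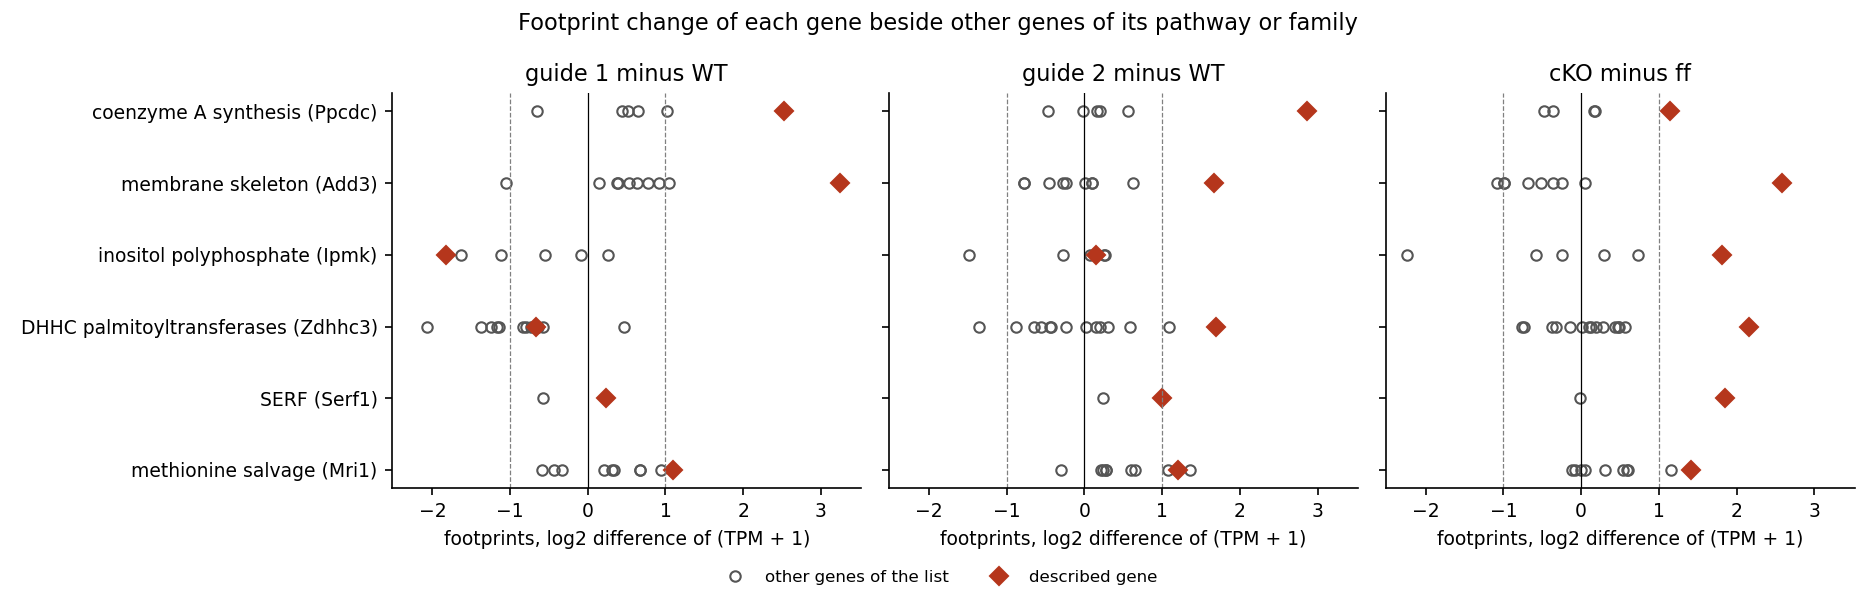
Footprint change, as a difference of log2(TPM + 1), of each gene (red diamond) and of the other tested genes on its pathway or family list (open circles); cortexins and aquaporins had no other tested gene. The diamonds were chosen for higher footprints and the circles were not, so their order is a description. In cKO each diamond lies right of all circles of its list. Under guide 1 Ipmk (-1.83) and Zdhhc3 (-0.66) lie among or below theirs.

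Overlapping genes bear on how reads were assigned, since strand handling is not given in the sources used here. In RefSeq (GRCm38.p6) Mri1 overlaps D8Ertd738e on the same strand, and Zdhhc3 overlaps Tgm4 on the opposite strand. D8Ertd738e had footprints of 235 and 247 TPM under guides 1 and 2 against 176 TPM in WT, and 236 TPM in cKO against 219 TPM in ff. Its changes of 0.41, 0.49 and 0.11 were smaller than those of Mri1, and its level was far higher, so the Mri1 values are uncertain to the extent that reads were shared between them. Tgm4 was listed at 0 in all 10 libraries. Ppcdc and Add3 each overlap a long noncoding RNA on the opposite strand, which was not analysed here.

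The genes nearest to 7 of the 8 are given here, taken by the Euclidean distance over 6 log2 changes, footprint and input in the 3 comparisons, among the 6926 other genes tested in both tables. For Ctxn1 the nearest was 4833439L19Rik (distance 0.518), for Ipmk Tpst1, which sulfates tyrosines of secreted proteins (0.528), and for Zdhhc3 Pkig, an inhibitor of protein kinase A (0.537). For Mri1 it was Acat2, a cytosolic acetyl-CoA acetyltransferase (0.631), and for Serf1 the Nudix hydrolase gene Nudt19 (0.634). For Ppcdc it was D030056L22Rik (0.954) and for Add3 Mis12 (1.43). Within the set the smallest distances were between Ctxn1 and Zdhhc3 (1.02) and between Serf1 and Mri1 (1.06). Among all genes Zdhhc3 ranked 3 by distance to Ctxn1, and Ctxn1 ranked 16 to Zdhhc3. Mri1 ranked 34 to Serf1 and Serf1 33 to Mri1, so many other genes lay closer to these. Add3 (2.27, to Ppcdc), Ppcdc (2.23, to Mri1) and Ipmk (1.93, to Ctxn1) lay farthest from their closest of the 8. That closest gene ranked 4 by distance to Add3, 23 to Ppcdc and 595 to Ipmk among all genes. Pkig footprints were at 3.51 and 17.9 TPM under the guides against 5.91 TPM in WT, and at 14.7 TPM in cKO against 1.92 TPM in ff, which within each table is the order seen for Zdhhc3.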

How the data were processed

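Input RNA and footprints of 5 mouse conditions were measured, 1 library each. The authors deposited TPM in 2 tables, normalised separately. Fastp 0.18.0 and Bowtie2 were used, per the submitters' processing notes. The quantifier, build, annotation and treatment of multiply mapping reads are not stated in those notes or labels. Input RNA was enriched for poly(A), and footprints were depleted of rRNA, per the labels' protocols. Depth cannot be read off TPM, so no counting interval is given, and values are relative: more TPM in 1 gene class means less in others.

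For 20 repeated symbols (42 rows) the row with the highest mean was kept. Differences were taken within a table on log2(TPM + 1), which understates changes of low genes. Input of the guides was compared with WT by limma 3.58.1 in R 4.3.3 (trend, Benjamini-Hochberg, adjusted p under 0.05). On simulated data for the 7536 genes of that comparison limma recovered 76 of 100 genes set 2-fold apart, 100 of 100 set 4-fold apart, and called 4 of 7336 unchanged. In that simulation genes of like level shared 1 normal spread, taken from the differences between the guides and given to WT too. It does not measure recovery in the real libraries. Footprints were not tested because they chose the genes. The genes, lists and markers were chosen with earlier results of these data known. From the lists, genes past 2-fold under both guides or in cKO were named, with Ppcs, Coasy, Add1, Zdhhc7, Serf2, Mtap and Ippk, as paralogs or route neighbours, whatever their value; the nearest gene by distance and overlapping genes were added. Alternatives varied the pseudocount, filter, scaling, trend and guide. Python 3.11.15, pandas 2.3.3, numpy 2.4.6 and matplotlib 3.10.9 were used. A result that needs an item withheld for evaluation is not reported here.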

Additional observations from a re-analysis of the deposited data

Results flagged for a closer look

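For 3 of the 8 genes the footprint change had opposite signs under the 2 guides, each against the same WT library, as it did for 42.7% of 7536 genes tested, so the count does not set the 8 genes apart. The change under guide 1 minus that under guide 2 was -1.79 for Ctxn1, -1.98 for Ipmk and -2.36 for Zdhhc3 on the log2(TPM + 1) scale. With 1 library per guide these differences were not tested, and the guide 1 footprint library stood apart in its mitochondrially encoded share (0.781%); its part in the difference was not tested. Input RNA of 2 of the 8 genes, Ctxn1 and Ipmk, was higher under both guides than in WT and lower in cKO than in ff, at -0.16 and -0.34 in cKO; 17.7% of 6927 genes tested had input changes of 1 sign under both guides and the other in cKO. For Ipmk the guide side was near 0 and turned negative with library medians brought level. These differences were not tested either.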

How the results depend on the processing

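All 8 genes stayed at least 2-fold higher in cKO footprints with a pseudocount of 0.1 TPM and both rescalings, and 7 did with a pseudocount of 5 TPM. Under both guides 4 became 2 with a pseudocount of 5 TPM, where Aqp1 and Mri1 dropped out, and 3 with either rescaling, where Mri1 did. With 1 guide left out the count was 4 to 7 for the 8 genes, 228 to 1210 for all genes, 2 to 3 for pathway genes higher and 2 to 8 for those lower. Of 96 footprint values under alternatives 8 dropped below 2-fold, of 96 input values 1 did, of 96 efficiency values 4 passed it newly, and none changed sign while past 2-fold. All genes higher under both guides numbered 56, against 151 with no filter, 17 with a filter at 20 TPM and 20 with a pseudocount of 5 TPM. In cKO they numbered 194, against 419, 60 and 107, and 359 after bringing library medians level. That rescaling raised the median footprint change in cKO by 0.20 and lowered it under guide 1 by 0.13, and the footprint change of each of the 8 genes kept its sign under it. The input change of Ipmk turned to -0.04 under guide 1 and -0.01 under guide 2 with it. Pathway genes higher under both guides were 2 with no filter, those lower 0 at 20 TPM and 1 with a pseudocount of 5 TPM. Pathway genes higher in cKO were 2 with no filter. Those lower in cKO were 5 with no filter, 4 with a pseudocount of 0.1 TPM, and 1 with a pseudocount of 5 TPM, a filter at 20 TPM or either rescaling. The input change of Aqp1 in cKO was -0.93 with a pseudocount of 5 TPM. Limma called 0 input genes under the 7 alternatives run. The cause of these shifts was not tested, beyond the number of genes that a filter lets in. No paired analysis was possible because each condition and kind has 1 library, so no groups share more than 1 replicate number. Without 1 guide line the input comparison is 1 library against 1, with no residual degrees of freedom.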
